A study of Raphanus sativus with 12 samples.

Results

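The 5 genes described here act upstream of FLOWERING LOCUS C (FLC), the repressor that holds cabbage-family plants in vegetative growth until winter cold silences it. They were chosen by identifier from 30161 genes in the expression table: SUPPRESSOR OF FRI 4 (SUF4, Rsa10039644), FRIGIDA-ESSENTIAL 1 (FES1, Rsa10038633), FPA (Rsa10039278), the WD-40 repeat protein MSI4 (Rsa10031295) and LUMINIDEPENDENS (LD, Rsa10007500). Each carries at least 1 differential peak of N6-methyladenosine (m6A), a methylated base of messenger RNA, and those peaks were among the values that chose the genes. Leaf blades of diploid radish (Raphanus sativus, material XHT) were sampled at 120 days after sowing, in reproductive growth, and at 30 days, in vegetative growth, in a study of m6A in bolting and flowering. All plants were grown untreated at 25 °C under 16 hours of light and at 23 °C in the dark. Each library pooled leaves of 3 plants, and each age had 3 input libraries (plain RNA-seq) and 3 libraries immunoprecipitated (IP) for m6A, 12 in all. A blade is a mixture of cell types, so fewer cells of a type and less RNA per cell cannot be told apart.

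As background from Arabidopsis, FLC is driven by a complex built on the scaffold protein FRIGIDA. SUF4 is the zinc finger protein that brings this complex to FLC, and FES1 is a zinc finger component of it. The autonomous pathway works the other way and keeps FLC low: FPA is an RNA-binding protein that acts on the 3′ end processing of FLC antisense transcripts, MSI4 (also called FVE) belongs to histone-modifying complexes, and LD is a homeodomain protein that binds SUF4 and restrains it. In leaves these proteins therefore set how much FLC stands against flowering. Messenger RNA methylation in plants lies mostly near stop codons and in 3′ untranslated regions (UTRs), where reader proteins bind it.

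All 7 differential peaks in the 5 genes were higher at 120 days in the authors' deposited table, as were 96.8% of the 5476 peaks listed. Peak values are the authors' own, with no value per IP library, and the sources used here do not say whether transcript level was removed from them. SUF4 (R06, 13697988 to 13700739, plus strand) had the peak with the highest log2 fold of the 7. It spanned 1028 bases (13699712 to 13700739), was annotated as 3′ UTR, ended at the annotated 3′ end and had a log2 fold of 0.726, or 1.65-fold, with an FDR of 1e-14. Of all listed peaks, 77.8% had a lower log2 fold. FES1 (R01, 5663943 to 5666491, plus strand) had 1 exonic peak of 731 bases (5665761 to 5666491) that also ended at the 3′ end, with a log2 fold of 0.52 (FDR 1.48e-07), close to the median of 0.504 over all peaks.

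The peaks of the 3 autonomous-pathway genes had lower log2 folds than these. LD (R02, 28939365 to 28943512, minus strand) had 2 exonic peaks. The one at its 3′ end (28939364 to 28939815, 452 bases) had a log2 fold of 0.455 (FDR 1.78e-10), and the other, 909 bases upstream of that end (28940273 to 28940835, 563 bases), had 0.376 (FDR 0.000251). FPA (R01, 1902457 to 1913469, plus strand) was the longest gene and the one with no peak at its annotated 3′ end. Its exonic peak (1906826 to 1908495, 1670 bases) lay near the middle of the gene, 4974 bases from the 3′ end, with a log2 fold of 0.362 (FDR 0.00372). Its second peak (1910834 to 1911493, 660 bases) was annotated as 3′ UTR and still lay 1976 bases short of the annotated end, with a log2 fold of 0.346 (FDR 0.00457). MSI4 (R01, 30011296 to 30014768, plus strand) had the lowest log2 fold of the 7, in an exonic peak of 467 bases at the 3′ end (30014302 to 30014768) at 0.265 (FDR 0.00871), and 8.38% of all peaks had a lower one. The table lists peaks with an FDR up to 0.0912, so the values of peaks beyond that limit are not analysed here.

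Position was not used in choosing the genes. Of the 7 peaks 4 reached the annotated 3′ end of their gene, against 70.1% of the 5465 peaks whose gene had a strand. By annotation 5 were exonic and 2 lay in 3′ UTRs, beside 63.0% and 34.5% of all peaks. Of the 5 genes, 2 had more than 1 peak, and 255 of the 5211 genes with a peak did. None of these shares was tested.

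**Figure D1:**
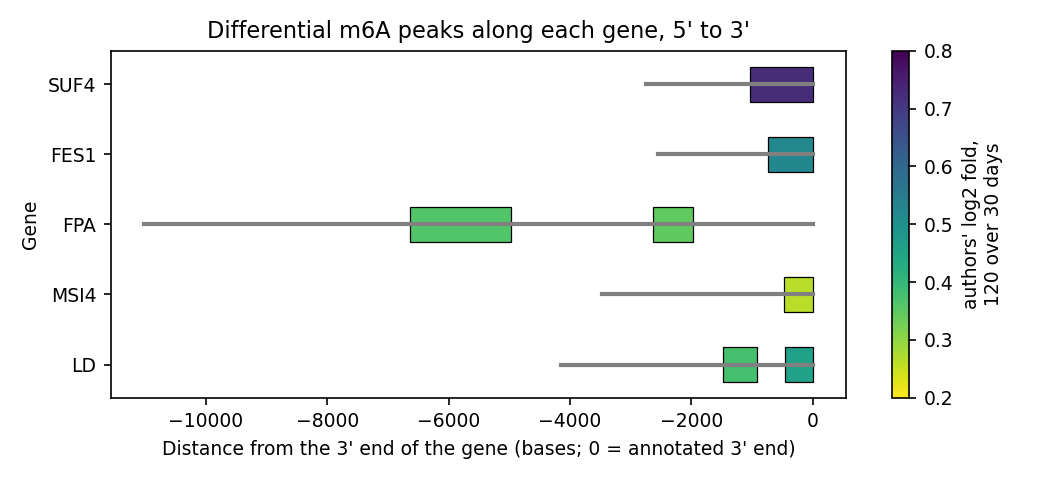
Differential m6A peaks (boxes) along the 5 genes (grey lines), with distance from the annotated 3′ end in bases on the x axis and the authors' log2 fold of 120 over 30 days as colour. SUF4, FES1, MSI4 and LD each have a peak at the 3′ end, while both FPA peaks lie inside the gene, 1976 and 4974 bases from its end.

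The 5 transcripts stood apart to different degrees between the ages. SUF4 at 120 days stood at 0.436 times its 30-day level, FES1 and LD were lower by smaller amounts, and the levels of FPA and MSI4 overlapped between the ages. These levels come from the same contrast as the peaks that chose the genes, so they are given as a description with no test. Levels are in FPKM (fragments mapped to a gene, scaled by transcript length and library size), so that different genes can be set side by side. Log2 folds were taken on log2(FPKM + 1), 120 over 30 days, with the standard error (SE) from a limma fit to all 21435 tested genes.

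SUF4 had 7.89, 7.30 and 7.75 FPKM in the 120-day libraries, against 17.15, 17.37 and 18.09 FPKM in the 30-day libraries. The means were 7.65 ± 0.308 FPKM at 120 days and 17.5 ± 0.492 FPKM at 30 days (SD, n = 3 each). Every 120-day library lay below every 30-day library, and the spread within each age was small beside the gap. The log2 fold was −1.10 ± 0.12 (SE), lower than that of all but 13.4% of the tested genes.

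FES1 had 5.97, 5.59 and 7.18 FPKM at 120 days, against 10.76, 10.47 and 8.86 FPKM at 30 days. The ages did not overlap, although replicate 3 of each age lay nearest to the other age. The 120-day mean was 0.623 times the 30-day mean, and the log2 fold was −0.61 ± 0.154 (SE).

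LD, the partner that restrains SUF4 in Arabidopsis, had 12.54, 11.81 and 11.01 FPKM at 120 days, against 16.64, 14.87 and 16.36 FPKM at 30 days. Its ages did not overlap either. The means were 11.8 ± 0.765 FPKM at 120 days and 16.0 ± 0.951 FPKM at 30 days (SD, n = 3 each), and the log2 fold was −0.41 ± 0.127 (SE), close to the median of all tested genes.

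FPA had 5.10, 5.49 and 5.06 FPKM at 120 days, against 6.25, 5.32 and 6.0 FPKM at 30 days. The ages overlapped, since 120-day replicate 2 stood above 30-day replicate 2. The log2 fold was −0.14 ± 0.134 (SE). MSI4 had 15.29, 15.18 and 15.44 FPKM at 120 days, against 18.92, 14.47 and 15.58 FPKM at 30 days. Its 120-day values lay inside the range of the 30-day values, which was set by a high replicate 1, and its log2 fold was −0.08 ± 0.143 (SE). The authors' deposited table gives log2 folds of the same sign for all 5 genes, −1.20 for SUF4, −0.68 for FES1, −0.44 for LD, −0.17 for FPA and −0.09 for MSI4.

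In total 3 of the 5 genes did not overlap between the ages and were lower at 120 days, and 49.1% of all tested genes did the same. Nothing is read from the count, since the 5 genes were picked with this contrast known.

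**Figure D2:**
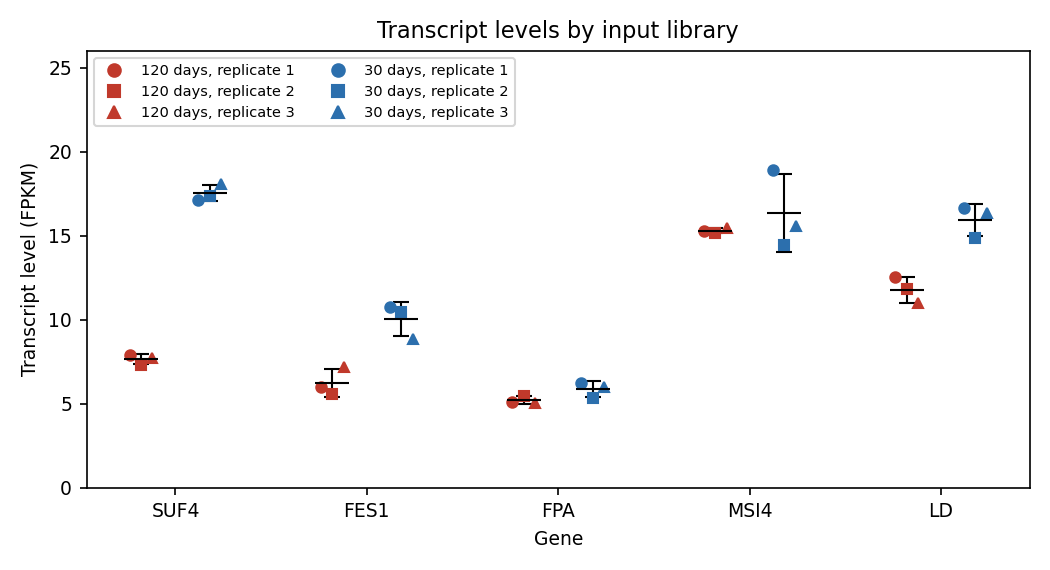
Transcript level in FPKM (y axis) of the 5 genes in each input library, with 120 days left of 30 days and a bar for the mean ± SD of 3 libraries. SUF4 shows the widest gap, 7.30 to 7.89 FPKM at 120 days against 17.15 to 18.09 FPKM at 30 days, while FPA and MSI4 overlap.

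The median tested gene was itself lower at 120 days, by a log2 fold of −0.45 in the values as deposited, so the sign of a small fold depends on the scaling. After each library was centred on its median, SUF4 remained at −0.66 ± 0.124 (SE) and FES1 at −0.17 ± 0.164 (SE). LD came to 0.03 ± 0.113 (SE), FPA to 0.30 ± 0.123 (SE) and MSI4 to 0.36 ± 0.128 (SE), and quantile normalization gave 0.01 for LD, 0.27 for FPA and 0.34 for MSI4. The centred LD value was smaller than its SE, and that of FES1 was close to its own. These centred values are a description with no test, since this contrast was known when the genes were chosen. None of these genes is placed above or below the median gene from them.

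**Figure D3:**
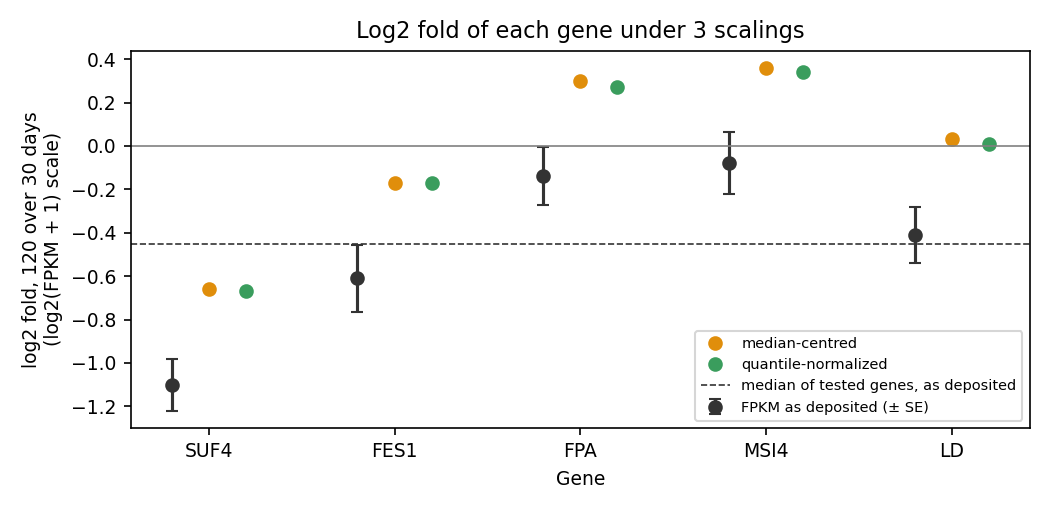
Log2 fold of 120 over 30 days (y axis) for each gene, from FPKM as deposited (black, ± SE), after median centring (orange) and after quantile normalization (green), with the median of all tested genes as a dashed line. SUF4 and FES1 stay below 0 under the 3 scalings, and LD, FPA and MSI4 cross it.

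A ratio of 2 genes within a library is unchanged by a factor common to that library, but not by quantile normalization. The denominator here, MSI4, was itself chosen with this contrast known. It had the highest log2 fold of the genes chosen, −0.08 as deposited and 0.36 after median centring. Lower ratios to it at 120 days therefore follow in part from its own fold, and they are given as a description with no test. SUF4 stood at 0.516, 0.481 and 0.502 times the MSI4 level in the 120-day libraries, against 0.906, 1.20 and 1.16 times in the 30-day libraries. The LD ratio to MSI4 was 0.820, 0.778 and 0.713 at 120 days, against 0.879, 1.03 and 1.05 at 30 days, so these did not overlap between the ages either. LD itself came to 0.03 ± 0.113 (SE) after median centring. The FPA ratio to MSI4 was 0.334, 0.362 and 0.328 at 120 days, against 0.330, 0.368 and 0.385 at 30 days, and overlapped. The FES1 ratio was 0.390, 0.368 and 0.465 at 120 days, against 0.569, 0.724 and 0.569 at 30 days. FES1 itself came to −0.17 ± 0.164 (SE) after median centring.

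The order of the levels changed with these ratios. At 120 days it was MSI4, LD, SUF4, FES1 and FPA in each of the 3 libraries, and no neighbours overlapped, although SUF4 (lowest 7.30 FPKM) almost met FES1 (highest 7.18 FPKM), and FES1 (lowest 5.59 FPKM) almost met FPA (highest 5.49 FPKM). At 30 days SUF4 was first in replicates 2 and 3 and second to MSI4 in replicate 1. MSI4 overlapped both SUF4 and LD there, and the order of FES1 and FPA at the lower end was the same in each library. The 5 genes summed to 46.2 ± 0.74 FPKM at 120 days and 65.7 ± 3.68 FPKM at 30 days (SD, n = 3 each). SUF4 supplied 16.1% to 16.9% of that sum at 120 days and 24.6% to 27.9% at 30 days.

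Among the 5 genes, the order of the peak folds ran against the order of the transcript folds: SUF4, FES1, LD, FPA and MSI4 from the highest peak fold to the lowest, and from the lowest transcript fold to the highest. With 5 genes chosen in view of these values this is a description. Across the 19 other genes of the pathway with a peak, Pearson's r between the transcript fold and the fold of the peak with the smallest FDR was −0.19 and Spearman's rho −0.20, and over the 5004 tested genes with a peak they were −0.06 and −0.11. These are across genes, which are not independent replicates, and if the authors' peak comparison used the input libraries the same libraries enter both axes.

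**Figure D4:**
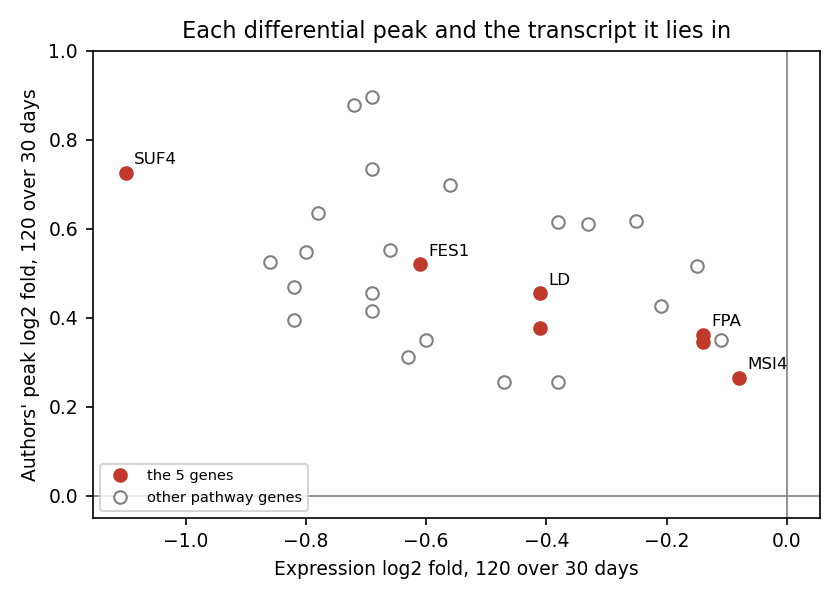
Authors' log2 fold of each differential peak (y axis) against the log2 fold of the transcript it lies in (x axis), both of 120 over 30 days, for the 5 genes (red) and the other pathway genes (open). The red points run from SUF4 at −1.10 and 0.726 to MSI4 at −0.08 and 0.265, and the open points are scattered between 0.255 and 0.896 on the y axis.

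Radish holds further copies of most of these genes, and reads shared by near-identical copies could have been split between them in the deposited values. The other SUF4 copy (Rsa10015885, R08, 13163790 to 13166635) fell. It had 11.42, 13.82 and 10.50 FPKM at 120 days, against 22.06, 17.53 and 20.95 FPKM at 30 days, with a log2 fold of −0.72 ± 0.162 (SE; limma adjusted p = 0.0148) and no overlap between the ages. The call was lost after median centring (adjusted p = 0.2), after quantile normalization and without 120-day replicate 1 or 3 or 30-day replicate 1. It too had a higher peak at 120 days, with the authors' log2 fold of 0.879. Both SUF4 copies together summed to 19.6 ± 1.45 FPKM at 120 days and 37.7 ± 2.44 FPKM at 30 days (SD, n = 3 each).

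Of the other MSI4 copies, Rsa10025915 (R09, 10219184 to 10221886) and Rsa10028837 (R01, 9267851 to 9271752) fell. The first had 3.83 ± 0.931 FPKM at 120 days and 7.23 ± 0.96 FPKM at 30 days (SD, n = 3 each), with a log2 fold of −0.78 and a limma adjusted p of 0.0202, and its peak had a log2 fold of 0.636. The second had 6.71 ± 0.535 FPKM at 120 days and 11.9 ± 3.35 FPKM at 30 days, with a log2 fold of −0.70 (limma adjusted p = 0.0441), and no peak. Both calls were lost after median centring (adjusted p = 0.264 and 0.357), after quantile normalization, and without 120-day replicate 1 or 2 or 30-day replicate 1, and the second also without 120-day replicate 3 or 30-day replicate 3 and with no filter. MSI5 (Rsa10018994), the closest relative of MSI4, had 0.617 ± 0.289 FPKM at 120 days and 1.5 ± 0.394 FPKM at 30 days and did not pass (limma adjusted p = 0.0505; 0.0255 to 0.514 over the alternatives). The MSI4 copy Rsa10031295 supplied 57.1% to 58.6% of the summed MSI4 and MSI5 FPKM at 120 days and 40.8% to 47.4% at 30 days. Whether its fold differs from those of its copies was not tested.

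The FPA-like copy Rsa10024119 (R05, 12494511 to 12498337) fell as well, with 2.76, 2.94 and 2.71 FPKM at 120 days, against 5.27, 4.46 and 4.14 FPKM at 30 days (log2 fold −0.56, limma adjusted p = 0.0234), and its peak had a log2 fold of 0.698. This call was lost after median centring (adjusted p = 0.538), after quantile normalization, and without 120-day replicate 1, 2 or 3 or 30-day replicate 1. A short copy (Rsa10026126, R03, 14200037 to 14200420) had 1.60 ± 0.523 FPKM at 120 days and 2.26 ± 1.79 FPKM at 30 days (limma adjusted p = 0.669). The second FES1 copy (Rsa10016973) was below the filter on low values, with 0.953 ± 0.284 FPKM at 120 days and 0.82 ± 0.164 FPKM at 30 days. Rsa10038633 therefore supplied most of the FES1 transcript, 82.6% to 91.1% at 120 days and 90.2% to 94.2% at 30 days. LD had 1 copy in the table.

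Genes of families linked to FLC regulation were gathered by words in their descriptions, and whether each copy acts at FLC in radish is unknown. Of 67 such genes, the 5 left out, 60 were high enough to test, and 30 of them fell and 0 rose at 120 days (limma, Benjamini-Hochberg over all tested genes). At an unadjusted p under 0.05, 40 were lower and 0 higher. No share over all tested genes was taken at that threshold, so nothing is read from these 2 counts. At the adjusted threshold 37.6% of all tested genes were called lower and 8.4% higher. The pathway's median log2 fold was −0.58 beside −0.45 for all tested genes. After median centring 3 of the 60 were called lower and 2 higher, where 10.2% and 13.8% of all tested genes were. After quantile normalization 4 were called lower and 1 higher, beside 2799 and 2654 of all 21435 tested genes. The genes called higher after median centring, chosen here after their values were seen, were the histone methyltransferase ATX1 (Rsa10016600) and cleavage and polyadenylation specificity factor subunit 2 (Rsa10018335), with centred log2 folds of 0.64 and 0.43 (limma adjusted p = 0.0464 for each). Leaving out 120-day replicate 1, 2 or 3 left 17, 12 or 14 lower calls, and leaving out 30-day replicate 1 left 15. Over all 21435 tested genes these settings left 5032, 3900, 3789 and 5299 lower calls. In 27 of the 30 genes the call was lost under at least 1 alternative.

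Of the genes matched as FRIGIDA complex and other FLC activators, FRIGIDA-like copies included, 12 of 17 were tested, 8 fell and 0 rose. Their median log2 fold was −0.69, beside −0.45 for all tested genes, of which 37.6% were called lower. After median centring 1 of the list was called lower, and after quantile normalization 2 were. Of all tested genes 10.2% were called lower after median centring, and 2799 of 21435 after quantile normalization. The differences were not tested. Inactive FRIGIDA-like protein 2 (Rsa10039600, R06, 13207950 to 13208507) had 0.59, 0.65 and 0.25 FPKM at 120 days, against 1.98, 2.83 and 4.21 FPKM at 30 days (log2 fold −1.39, limma adjusted p = 0.00793). Its call held under each alternative (adjusted p 0.00746 to 0.0405), and it was the 1 gene of the list called after median centring. It passed the filter of 1 FPKM through the 30-day libraries only, however. A neighbouring gene with the same description was below the filter, with 0.40 FPKM at 120 days and 0.79 FPKM at 30 days, and its ages overlapped. FRIGIDA-like protein 5 (Rsa10009315), named outside the naming rule, also passed the filter through the 30-day libraries only and is among the 8 that fell. It had 0.633 FPKM at 120 days and 1.64 FPKM at 30 days, and its call was lost after median centring and after quantile normalization. A FRIGIDA-like gene (Rsa10014844, R09, 16400370 to 16402178), among several with this description, had 1.91 ± 0.119 FPKM at 120 days and 4.53 ± 0.525 FPKM at 30 days (SD, n = 3 each). Its log2 fold was −0.92, with a limma adjusted p of 0.00587, and 0.0577 after median centring. The other tested genes with this description also fell, and their calls were lost after median centring and after quantile normalization. FLX-like 1 (Rsa10032229), named for its likeness to a coiled-coil component of the complex, had 10.1 ± 0.823 FPKM at 120 days and 16.4 ± 1.65 FPKM at 30 days (limma adjusted p = 0.0132). Its call was lost after median centring (adjusted p = 0.327), after quantile normalization and without 120-day replicate 2 or 3. Without any 1 of the 120-day libraries, 2 to 4 of this list were called, and without 30-day replicate 1, 3 were.

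Of the genes matched to the autonomous pathway, 19 of 20 were tested, 9 fell and 0 rose. Their median log2 fold was −0.56, beside −0.45 for all tested genes, of which 37.6% were called lower. After median centring 2 of the list were called lower, and after quantile normalization also 2. Of all tested genes 10.2% were called lower after median centring, and 2799 of 21435 after quantile normalization. The differences were not tested. Both copies of FCA, the RNA-binding protein that works beside FPA on FLC antisense transcripts, fell. FCA (Rsa10018878, R02, 9866684 to 9871412) had 5.73, 7.71 and 6.46 FPKM at 120 days, against 14.02, 13.58 and 14.05 FPKM at 30 days (log2 fold −0.97, limma adjusted p = 0.005; 0.00514 to 0.0474 over the alternatives). FCA-like (Rsa10006367) had 8.14 ± 1.21 FPKM at 120 days and 14.9 ± 2.12 FPKM at 30 days (log2 fold −0.80, limma adjusted p = 0.0128, and 0.212 after median centring). Lysine-specific histone demethylase 1 homolog 3 (Rsa10016000), a relative of the pathway's demethylase FLOWERING LOCUS D, also fell, with 4.04 ± 0.123 FPKM at 120 days and 8.72 ± 1.57 FPKM at 30 days (log2 fold −0.94, limma adjusted p = 0.00692; 0.00579 to 0.0453 over the alternatives). Of this list, without any 1 of the 120-day libraries 3 or 4 were called lower, and without 30-day replicate 1, 3 were.

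The PAF1 complex travels with RNA polymerase and is needed for FLC transcription in Arabidopsis. All 6 matched genes were tested, and 4 fell and 0 rose. Their median log2 fold was −0.62, beside −0.45 for all tested genes, of which 37.6% were called lower. The difference was not tested. The LEO1 homolog Rsa10019658 had 8.09 ± 0.316 FPKM at 120 days and 15.2 ± 2.29 FPKM at 30 days (SD, n = 3 each), for a log2 fold of −0.82 and a limma adjusted p of 0.00823. CDC73 (Rsa10006010) had 12.3 ± 0.533 FPKM at 120 days and 20.5 ± 1.53 FPKM at 30 days (log2 fold −0.69, limma adjusted p = 0.008). The PAF1 homolog (Rsa10007905) and the CTR9 homolog (Rsa10041690) fell with log2 folds of −0.86 and −0.47 (limma adjusted p = 0.0149 and 0.0227). Both calls were lost without 120-day replicate 2 or 3 or 30-day replicate 1, and that of the CTR9 homolog also without 120-day replicate 1. None of these 4 passed after median centring. Without 120-day replicate 2 or 3 or 30-day replicate 1, 2 of the list were called.

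Of the SWR1 complex, which deposits a histone variant at FLC, and of histone modifiers that mark FLC as active, all 13 matched genes were tested. The list had a median log2 fold of −0.38, beside −0.45 for all tested genes, of which 37.6% were called lower. In the list 6 fell and 0 rose. Those with the smallest p were the WDR5B component (Rsa10001947), SWR1 complex subunit 2 (Rsa10038826) and the ubiquitin ligases BRE1-like 1 (Rsa10006236) and BRE1-like 2 (Rsa10012175), with log2 folds of −0.85, −0.92, −0.86 and −0.64 (limma adjusted p = 0.00572, 0.00774, 0.0102 and 0.00955). None of these 4 passed after median centring, and without 120-day replicate 2, 3 of the list were called, BRE1-like 2 not among them. Genes that cleave and polyadenylate RNA form the machinery through which FPA and FCA act. Their median log2 fold was also −0.38, less negative than that of all tested genes. Of this list 10 of 11 were tested, 3 fell and 0 rose, where 37.6% of all tested genes were called lower. The 3 that fell were symplekin (Rsa10011892, log2 fold −0.86, limma adjusted p = 0.0105), the 30-kDa specificity factor that also reads m6A in Arabidopsis (Rsa10040349, −0.66, 0.0117) and a specificity factor subunit described as CG7185 (Rsa10037759, −0.63, 0.0267). None of the 3 passed after median centring. The call was lost for symplekin without 120-day replicate 2, for the 30-kDa factor without 120-day replicate 3, and for the CG7185 subunit without 120-day replicate 1, 2 or 3 or 30-day replicate 1. Without 120-day replicate 2 or 3, 1 of this list was called, and without 30-day replicate 2, 6 were. Cleavage stimulation factor subunit 77 (Rsa10040900) had 5.18 ± 0.45 FPKM at 120 days and 7.25 ± 0.81 FPKM at 30 days (limma adjusted p = 0.0575; 0.0435 to 0.943 over the alternatives).

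**Figure D5:**
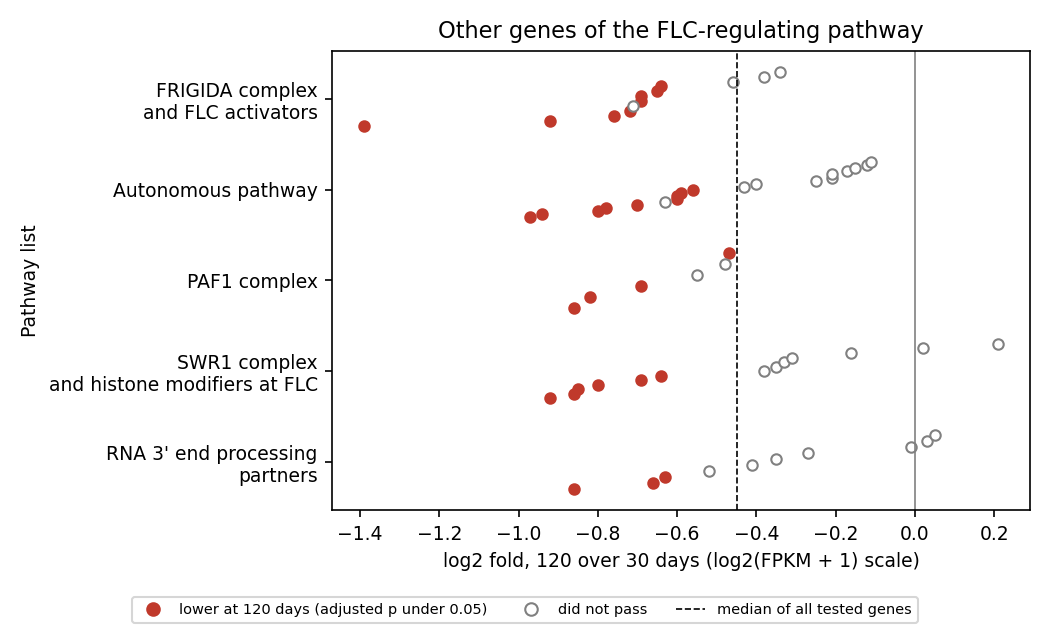
Log2 fold of 120 over 30 days (x axis) of the 60 tested genes in 5 pathway lists, the 5 genes themselves left out, filled where limma called them lower and open where they did not pass. All 30 filled points lie left of 0, as does the median of all tested genes at −0.45 (dashed).

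Of the 67 other pathway genes 19 had a differential peak (28.4%), where 17.2% of all genes in the table did. Among tested genes only, the shares were 31.7% of the 60 pathway genes and 23.3% of all. By list the share of matched genes was 11.8% for FLC activators, 35.0% for the autonomous pathway, 50.0% for the PAF1 complex, 30.8% for SWR1 and histone modifiers and 27.3% for RNA 3′ end processing. The differences were not tested. All 22 peaks of the 19 genes were higher at 120 days. Their log2 folds ran from 0.255 to 0.896 with a median of 0.52, a range that takes in the 7 peaks of the 5 genes. They included FY (Rsa10036170), FLOWERING LOCUS K (Rsa10043111), REF6 (Rsa10003703) and histone deacetylase 6 (Rsa10042105) of the autonomous pathway, with peak folds of 0.35, 0.426, 0.35 and 0.515. These 4 were named because of their peaks, outside the naming rule. Of the 19 genes 13 fell, where 56.1% of all tested genes with a peak were called lower. Of the 41 tested pathway genes with no peak 17 fell. The matching share over all tested genes was not taken, so nothing is read from that count. Median transcript log2 folds were −0.63 with a peak and −0.52 without in the pathway. Over all tested genes they were −0.57 and −0.40, so a lower median with a peak was not particular to the pathway. The difference in calls was not tested.

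The 3 FLC-like copies were lower at 120 days and the SOC1-like copies higher, with log2 folds of −5.29 (Rsa10036313), −4.02 (Rsa10024990) and −2.30 (Rsa10013589) for FLC and 4.29 (Rsa10006202) and 3.05 (Rsa10039427) for SOC1. The FT copy Rsa10015765 had 10.3 ± 8.99 FPKM at 120 days and 0.293 ± 0.295 FPKM at 30 days (SD, n = 3 each). Its log2 fold was 2.79. The FT-like copy Rsa10033877 had 0.297 ± 0.286 FPKM at 120 days and 3.53 ± 3.29 FPKM at 30 days. Its values overlapped between the ages, and it was below the filter. None of the 7 FLC, SOC1 and FT copies had a differential peak in the authors' list, where 17.2% of all genes and 23.3% of tested genes did. This difference was not tested, and nothing is read from 7 genes.

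The tested genes whose pattern over the 6 input libraries was most like that of each gene were found by Pearson's r on log2(FPKM + 1), among 16077 genes with an informative description. For FPA the second of these was FLOWERING LOCUS K (Rsa10043111), also of the autonomous pathway, at r = 0.9879, after a U11/U12 small nuclear ribonucleoprotein 48 kDa protein-like gene (Rsa10043128) at 0.9881. SUF4 was closest to a BTB/POZ and MATH domain gene (Rsa10035901, 0.9998) and a dr1-associated corepressor-like gene (Rsa10020790, 0.9994). FES1 was closest to another 48 kDa U11/U12 protein gene (Rsa10010152, 0.9971) and a probable polygalacturonase (Rsa10040826, 0.9944). LD was closest to an RBBP6-like ubiquitin ligase (Rsa10017285, 0.9994) and COP9 signalosome subunit 4 (Rsa10031139, 0.9985), and MSI4 to expansin-A5-like (Rsa10024723, 0.9913) and a receptor-like kinase (Rsa10010183, 0.9911). MSI4 and both of these were highest in 30-day replicate 1, at 18.92, 13.98 and 4.94 FPKM in that order, so their r rests largely on 1 library. With 6 libraries values of r this high are common: 2276 genes exceeded 0.95 with SUF4, 1750 with LD, 317 with FES1, 77 with FPA and 18 with MSI4.

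Library FPKM sums ran from 636795 to 694436, and read depth is unknown. Libraries correlated at 0.971 to 0.985 within 120 days and at 0.835 to 0.944 within 30 days, where replicate 3 stood furthest from the others. Without that library 32 other pathway genes were called lower and 0 higher, beside 9166 and 2197 of all 21435 tested genes. Leaf markers were abundant at both ages, the 6 Rubisco small chain genes summing to 47200 to 61700 FPKM at 120 days and 11500 to 12300 at 30 days, and 24 chlorophyll a-b binding genes to 23900 to 34100 at 120 days and 803 to 4530 at 30 days. The 11 floral organ identity genes summed to 1.29 to 4.46 FPKM at 120 days and 1.20 to 4.65 at 30 days, and none was high enough to test. Of 17 genes described as pollen-specific or of the tapetum, 9 were tested and 2 fell (sums of 308 to 325 FPKM at 120 days and 307 to 446 at 30 days), and of 5 genes matched as root markers 1 fell (68.3 to 89.4 at 120 days and 84.6 to 97.1 at 30 days). Each marker gene was above 0 in at least 1 library, and the part of these markers in the results was not tested.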

How the data were processed

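The authors deposited FPKM for 6 input libraries with 2 decimals, and log2 fold changes of 120 over 30 days, per the file headers. For m6A peaks the authors deposited a log2 fold, a p-value and an FDR per peak, per the file headers. The submitters' processing notes name fastp, FastQC, HISAT2, HOMER, StringTie and edgeR. Their roles, the genome build and the peak caller are not given in the sources used here, and coordinates are as in the files. Of all peaks, 1807 start 1 base before their gene and 0 at its first base, so peak starts may count from 0.

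FPKM hold no read counts, so no counting interval is given. Genes with at least 1 FPKM in at least 3 libraries were fitted as log2(FPKM + 1) with limma 3.58.1 in R 4.3.3 (eBayes with a trend, 2-sided, Benjamini-Hochberg over all tested genes, threshold 0.05), tested on simulated data. The members and lists were chosen with earlier results of these data known. Lists were matched by words in descriptions, and copper transport genes matched by the symbol ATX1 were dropped. Named genes were the 5, all copies of their families, up to 4 tested genes of smallest p per list, and 2 genes of like pattern each. Alternatives were a pseudocount of 0.1, no filter, median centring, quantile normalization, no trend, a replicate block and leaving out each library. Of the gene identifiers 0 matched the RefSeq table, so no sequence is shown.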

Additional observations from a re-analysis of the deposited data

How the results depend on the processing

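After median centring the log2 folds were −0.66 (SUF4), −0.17 (FES1), 0.30 (FPA), 0.36 (MSI4) and 0.03 (LD), and after quantile normalization −0.67, −0.17, 0.27, 0.34 and 0.01 in the same order. A pseudocount of 0.1 gave −1.19 for SUF4. Without 1 library in turn the folds ranged from −1.12 to −1.07 (SUF4), −0.70 to −0.54 (FES1), −0.20 to −0.10 (FPA), −0.16 to 0.03 (MSI4) and −0.45 to −0.36 (LD). MSI4 turned to 0.03 without 30-day replicate 1. Other pathway genes called lower numbered 30 as deposited, 3 after median centring, 4 after quantile normalization and 12 to 36 without 1 library. Those called higher numbered 0, 2, 1 and 0, and 1 with no filter (a histone demethylase homolog, Rsa10013070). All genes called higher numbered 1801 as deposited, 2968 after median centring and 954 to 2197 without 1 library, and those called lower 8052, 2188 and 3789 to 9166, with 2799 after quantile normalization. Centring moved log2 folds by 0.44 by construction, and leaving out a library leaves fewer samples. For other losses the cause was not tested. With a replicate block 23 pathway genes were called lower, 5 of them of the autonomous pathway, and of the named genes Rsa10024119, Rsa10028837 and Rsa10041690 were not called. Same-numbered libraries deviated together at r of 0.272, 0.142 and 0.081, so the numbers were not taken as pairs, although every library correlated best with its own number. All 7 peaks had an FDR of at most 0.01. Depth is unknown, so it sets no stated limit.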
